A study of Mus musculus with 16 samples.

Results

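The enzymes and regulators of sphingolipid metabolism were followed at the level of their RNA in regenerating mouse liver. The set holds 31 genes, listed by symbol for their place in ceramide, sphingomyelin and glycosphingolipid metabolism, out of 54838 gene identifiers in the deposited count tables, and all 31 symbols were matched to a single Ensembl identifier each. All 16 liver samples came from wild-type male C57BL/6J mice, with no age given in the sources used here. One experiment used intraperitoneal injections of 2 µl per g of body weight: 3 mice were given the hepatotoxin carbon tetrachloride (CCl4) diluted in equal parts with olive oil, and 3 were given the oil only, and livers were collected on day 3. In the surgical experiment, 5 livers were collected on day 3 after partial hepatectomy (PH), an operation that takes out some of the lobes, and 5 samples were the tissue resected at surgery, called PH day 0. There was no sham operation among the groups, so surgery itself and the loss of liver mass cannot be told apart. The libraries were made from whole snap-frozen liver, so the values average over all cell types, and fewer cells of a type and less RNA per cell cannot be told apart.

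Sphingolipids are built on a long-chain base that serine palmitoyltransferase makes from serine and palmitoyl-CoA. Ceramide synthases join a fatty acid to the base, a desaturase turns dihydroceramide into ceramide, and ceramide is then converted to sphingomyelin, glucosylceramide or ceramide 1-phosphate. Sphingomyelinases, glucosylceramidases and ceramidases run these steps backwards and free sphingosine, which sphingosine kinases phosphorylate to sphingosine 1-phosphate, a signalling lipid that the lyase removes for good. In liver, ceramides with very long acyl chains predominate, and ceramide and sphingosine 1-phosphate are known for opposed roles in cell survival and growth.

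The promoters of 5 members are shown because the results below turn on these genes. Cerk and Gba2 had the largest called changes in each direction after CCl4. Sptlc2, Cers6 and Smpd2 were added after their values were seen, Sptlc2 and Cers6 because they rose in both experiments, and Smpd2 because its response differed between them. Each stretch runs from 250 bases before to 50 bases after the annotated gene start in RefSeq on GRCm38.p6, 5′ to 3′ on the strand of the gene. Capitals mark every match, on either strand, to 4 core motifs: the E-box with the letters CACGTG, which MYC and USF proteins bind, the box of NF-Y with the letters CCAAT, the GC box of SP proteins with the letters GGGCGG, and the TATA box with the letters TATAAA.
Sptlc2 promoter, chr12:87388306-87388605, minus strand: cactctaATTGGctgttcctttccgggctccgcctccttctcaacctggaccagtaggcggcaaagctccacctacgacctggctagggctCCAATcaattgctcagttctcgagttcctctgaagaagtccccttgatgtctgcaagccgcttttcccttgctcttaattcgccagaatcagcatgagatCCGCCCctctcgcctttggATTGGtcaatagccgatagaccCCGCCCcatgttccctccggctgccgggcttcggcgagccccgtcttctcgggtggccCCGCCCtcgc
Cers6 promoter, chr2:68861191-68861490, plus strand: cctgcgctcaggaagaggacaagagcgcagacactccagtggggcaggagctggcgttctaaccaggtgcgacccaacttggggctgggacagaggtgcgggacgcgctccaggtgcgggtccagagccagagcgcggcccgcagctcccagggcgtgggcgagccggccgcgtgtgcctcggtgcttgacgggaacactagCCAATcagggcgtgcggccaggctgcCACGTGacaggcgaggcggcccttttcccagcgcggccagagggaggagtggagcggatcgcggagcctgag
Cerk promoter, chr15:86186092-86186391, minus strand: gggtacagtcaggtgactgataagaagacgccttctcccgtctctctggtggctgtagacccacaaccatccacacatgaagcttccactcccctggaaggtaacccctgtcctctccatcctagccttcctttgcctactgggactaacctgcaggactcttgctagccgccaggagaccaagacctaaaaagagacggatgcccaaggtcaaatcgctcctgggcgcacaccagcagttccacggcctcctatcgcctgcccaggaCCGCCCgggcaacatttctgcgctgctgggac
Gba2 promoter, chr4:43578815-43579114, minus strand: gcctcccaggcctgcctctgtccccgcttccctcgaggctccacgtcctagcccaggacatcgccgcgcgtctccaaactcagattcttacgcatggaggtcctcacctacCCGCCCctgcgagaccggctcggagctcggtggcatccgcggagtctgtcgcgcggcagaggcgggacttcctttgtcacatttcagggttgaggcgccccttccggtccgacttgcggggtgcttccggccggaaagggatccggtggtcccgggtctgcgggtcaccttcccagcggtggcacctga
Smpd2 promoter, chr10:41490291-41490590, minus strand: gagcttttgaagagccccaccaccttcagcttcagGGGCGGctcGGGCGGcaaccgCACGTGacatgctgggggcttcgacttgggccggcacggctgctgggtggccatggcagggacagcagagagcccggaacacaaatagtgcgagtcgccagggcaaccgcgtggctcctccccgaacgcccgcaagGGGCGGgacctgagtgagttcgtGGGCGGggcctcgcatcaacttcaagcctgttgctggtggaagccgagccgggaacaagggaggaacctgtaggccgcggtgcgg
The Sptlc2 promoter held 3 CCAAT boxes and 3 GC boxes, and the Smpd2 promoter held 4 GC boxes and 1 E-box. The Cers6 promoter held 1 E-box and 1 CCAAT box, and the promoters of Cerk and Gba2 held 1 GC box each. No TATA box was found in these 5 windows, and no matches overlapped in them. The E-box occurred in 7.15% of all 32851 mouse promoters of the same length and in 7 of the 44 promoters of members, and the GC box occurred in 35.7% of all and in 26 of the 44. The CCAAT box occurred in 37.4% of all promoters and in 15 of the 44, and the TATA box in 13.6% of all and in 2 of the 44. These matches describe the letters of the window and were not tested. The members with a promoter in the table numbered 29, and Smpd3 and Asah1 were not among them.

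Total counts ran from 4738196 to 6218526 in CCl4 livers, from 4295169 to 5221957 in olive oil livers, from 2795909 to 4391002 in PH day 3 livers and from 3271398 to 8647503 in PH day 0 livers. Values below are CPM, read counts relative to the library total, scaled by trimmed mean of M values (TMM) factors over all 16 libraries. A gene with no count in a library could still have been present at up to 3 counts, which was 0.369 to 1.03 CPM over these libraries. The summed CPM of 6 hepatocyte markers was 86244 to 106796 in CCl4 livers, 94141 to 105719 in olive oil livers, 105933 to 121887 in PH day 3 livers and 69666 to 88214 in PH day 0 livers, so markers of the labelled tissue were present in every group. Alb made up most of this sum, at 92731 ± 6899 CPM in PH day 3 and 54779 ± 6511 CPM in PH day 0 livers. Of the 6 markers, 1 rose and 2 fell after PH at an adjusted p under 0.05 (edgeR), and 1 fell after CCl4. CCl4 replicate 1 stood apart from the other CCl4 livers, with 46.7% of its counts in its top 50 genes, against 34.9% in both of them. The olive oil livers were at 40.8%, 43.8% and 44.5%, nearer to replicate 1 by this measure. The calls after CCl4, of the members and of the gene lists, are therefore also given without CCl4 replicate 1. The file headers give the injections and the surgery as different experiments on 1 lane of 1 run, so experiment and challenge cannot be told apart in any comparison between them.

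Length-scaled levels, in CPM per kb of exon, spread the members over several orders of magnitude. Cers2, the ceramide synthase of very long acyl chains, stood highest, at 73.2 ± 13.8 CPM per kb in CCl4 livers and 96.7 ± 10.8 in olive oil livers (SD, n = 3 each), and at 98.3 ± 4.79 in PH day 3 and 99.7 ± 11.9 in PH day 0 livers (n = 5 each). In olive oil livers it was followed by Ormdl3 at 30.2 ± 0.643 CPM per kb, Degs1 at 23 ± 2.49 and Ormdl2 at 19.1 ± 0.655, and the sample ranges of neighbours in that order did not overlap. Smpd1, Asah1, Sgpp1, Sgpl1 and Sphk2 then lay between 15.8 and 9.89 CPM per kb, with overlapping sample ranges between neighbours in the order. The low end of the tested members was formed by Cerk at 0.538 ± 0.0916 and Cers4 at 0.223 ± 0.094 CPM per kb in olive oil livers.

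**Figure D1:**
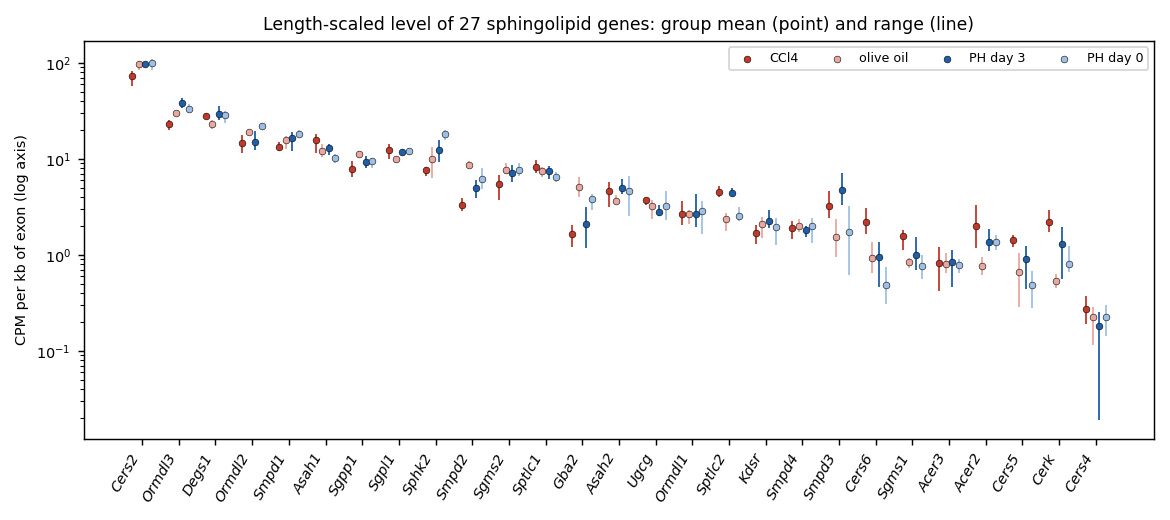
Length-scaled level of the 27 members that could be tested, in CPM per kb of exon on a log axis, for CCl4, olive oil, PH day 3 and PH day 0 livers (3, 3, 5 and 5 samples). Points are group means and lines run from the lowest to the highest sample. Cers2 lies highest and Cers4 lowest in olive oil livers.

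The remaining 4 members were at or near the limit of detection and did not pass the filter on low counts in any comparison. Sptlc3, the serine palmitoyltransferase subunit that makes bases of other chain lengths, had no count in any of the 16 libraries. Cers1, a ceramide synthase best known from brain and muscle, had 2 counts, both in PH day 3 replicate 14. It shares 42.5% of its exon bases with Gdf1 on the same strand, and reads that fall in both were not assigned by the authors' counting settings. Degs2, the desaturase and hydroxylase that makes phytoceramide, had 4 counts over the CCl4 livers and 2 over the olive oil livers, a ratio of 1.35 per library size (95% interval 0.193 to 14.9), and 4 counts over the PH day 3 livers with 0 over the PH day 0 livers. Sphk1, the inducible cytosolic sphingosine kinase, had 17 counts over the CCl4 livers and 1 over the olive oil livers, a ratio of 11.5 (95% interval 1.8 to 479). It had 8 counts over the PH day 3 and 7 over the PH day 0 livers, a ratio of 1.38 (95% interval 0.439 to 4.49). These exact binomial intervals on summed counts cover counting error only and not the spread between livers. Sphk1 was thus far below Sphk2, which held 95.9% to 98.5% of the summed CPM per kb of both kinases in CCl4 livers and 99.2% to 100% in olive oil livers.

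On day 3 after CCl4, the livers carried more RNA for the catalytic subunit that starts sphingolipid synthesis (Sptlc2), for a ceramide synthase of palmitoyl-type ceramides (Cers6), for the Golgi sphingomyelin synthase (Sgms1) and for ceramide kinase (Cerk). They carried less RNA for the neutral sphingomyelinase Smpd2, for the nonlysosomal glucosylceramidase Gba2 and for the sphingosine 1-phosphate phosphatase Sgpp1. Of 27 members tested, 4 rose and 3 fell at an adjusted p under 0.05, which is 25.9% called against 22.9% of all 11337 genes tested, a share near the background. Rises were called for 11.3% of all genes and falls for 11.6%. The median log2 fold change of the tested members was 0.12, against 0.01 over all genes. The lowest to highest CPM of the groups did not overlap for 15 of the 27 members, against 41.7% of all genes. Scaling by library size alone, which moved the median of all genes up by 0.45 on the log2 scale, called 10 members higher and 2 lower.

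Without CCl4 replicate 1 the count was 6 higher and 3 lower, and it shared 6 members with the 7 above. The log2 fold changes without that library were 0.79 for Sptlc2, 0.88 for Cers6, 0.80 for Sgms1, 1.76 for Cerk, -1.31 for Smpd2 and -1.68 for Gba2, each with an adjusted p under 0.05. Sgpp1 was then at -0.39 (adjusted p = 0.06) and was no longer called, while Ormdl3 (log2 -0.48, adjusted p = 0.016), Asah1 (0.55, 0.016) and Sgpl1 (0.45, 0.018) were called. Leaving out olive oil replicate 1 or 3 left 4 members called, 2 higher and 2 lower.

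On day 3 after PH, Sptlc2 and Cers6 were again higher, and Gba2 again lower, than in the tissue resected at day 0. The neutral sphingomyelinase Smpd3 and the acid ceramidase Asah1 were higher as well, and the serine palmitoyltransferase inhibitor Ormdl2 and the sphingosine kinase Sphk2 were lower. Of 26 members tested, 4 rose and 3 fell, which is 26.9% against 17.7% of all 10546 genes tested, with rises called for 9.73% of all genes and falls for 8.01%. The median log2 fold change was 0.01 over the members and -0.01 over all genes. Groups did not overlap for 4 of the 26 members, against 13.3% of all genes. Scaling by library size alone moved the median of all genes up by 0.14 and called 5 members higher and 2 lower.

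The injection and the surgical comparison have separate controls. Of the 26 members tested in both, Sptlc2, Cers6 and Gba2 were called the same way in both, which is 3 of the 7 called in each, and no member was called in opposite directions. That is 11.5% of the members tested in both, against 9.39% of all 10468 genes tested in both.

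**Figure D2:**
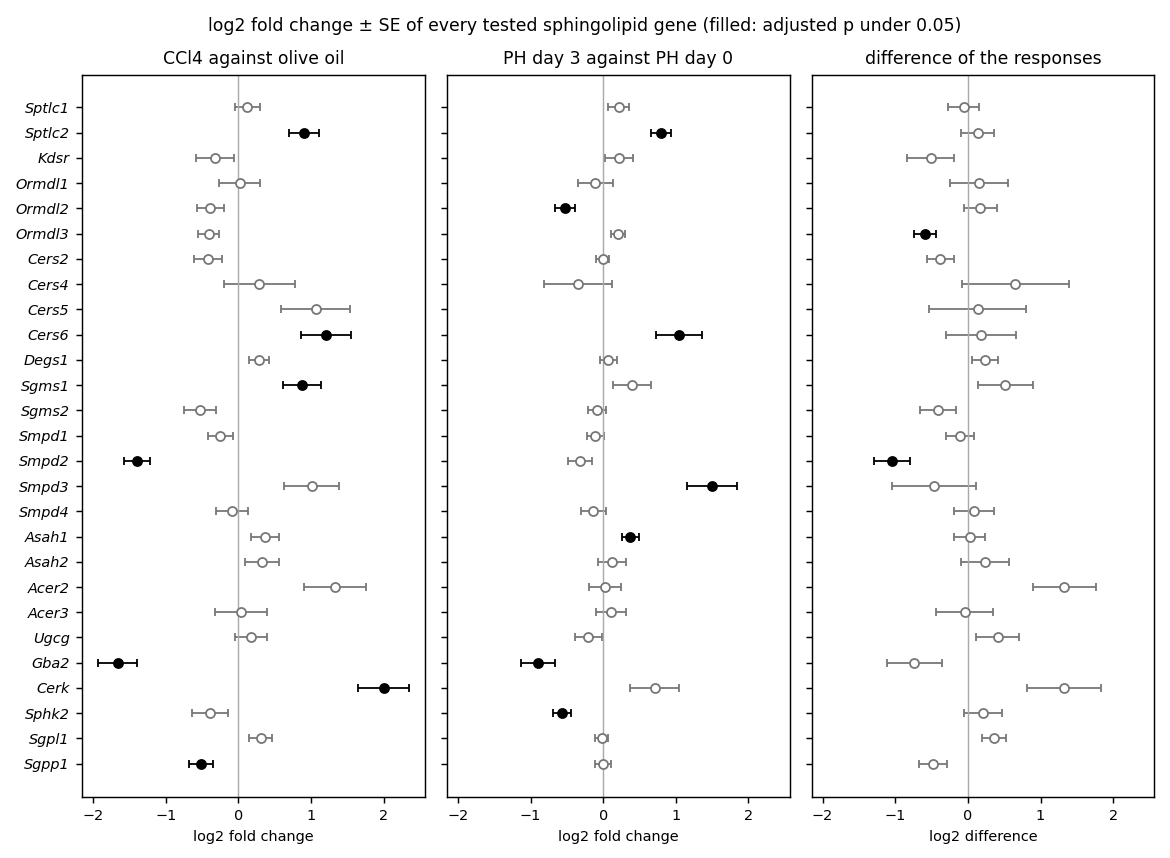
log2 fold change ± SE from edgeR of every tested member, for CCl4 against olive oil (n = 3 each), PH day 3 against PH day 0 (n = 5 each) and the difference of the 2 responses. Filled points have an adjusted p under 0.05. Cerk at 2.00 and Gba2 at -1.66 lie farthest from 0 after CCl4, and Smpd3 at 1.5 and Cers6 at 1.05 lie highest after PH.

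Serine palmitoyltransferase, the committed step of the pathway, works as a pair of Sptlc1 with Sptlc2 or Sptlc3. Sptlc2 was at 42.6, 34.7 and 32.7 CPM in CCl4 livers, against 14.5, 20.9 and 22.4 CPM in olive oil livers. Every CCl4 liver lay above every olive oil liver. The change was 1.87-fold higher after CCl4 (log2 0.90 ± 0.20, adjusted p = 0.0096). In the surgical experiment Sptlc2 was at 33.4, 40.1, 33, 34.8 and 38.2 CPM in PH day 3 livers, against 19.7, 25.8, 18.4, 18.2 and 22 CPM in PH day 0 livers. These groups did not overlap either, and Sptlc2 was 1.74-fold higher on day 3 (log2 0.80 ± 0.14, adjusted p = 0.00016). The difference between its responses, at 0.13 ± 0.23 on the log2 scale, did not pass the test (adjusted p = 0.82). No alternative ended either call of Sptlc2.

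Sptlc1, the partner subunit, was at 25.6 to 34.4 CPM in CCl4 livers and 23.1 to 29.2 CPM in olive oil livers, and at 21.9 to 30.3 CPM in PH day 3 and 20.2 to 26.2 CPM in PH day 0 livers, and was not called (log2 0.12 ± 0.18, adjusted p = 0.66 after CCl4 and 0.21 ± 0.14, adjusted p = 0.34 after PH). Sptlc2 therefore made up 33.1% to 37.3% of the summed CPM per kb of the Sptlc genes in CCl4 livers, against 21.6% to 25.1% in olive oil livers. In PH day 3 livers its share was 34.6% to 41.1%, against 23.6% to 34.1% in PH day 0 livers. Shares within a family do not depend on the scaling between libraries, and these did not overlap in either experiment. Kdsr, the reductase of the next step, was not called, at log2 -0.32 ± 0.26, adjusted p = 0.41 after CCl4, where library size scaling turned its sign, and 0.22 ± 0.19, adjusted p = 0.48 after PH.

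The Ormdl proteins sit on serine palmitoyltransferase and restrain it when ceramide is plentiful. Ormdl2 was at 20.6, 27.9, 22.3, 32.7 and 22.8 CPM in PH day 3 livers, against 37.5, 39.7, 37.1, 36.2 and 33.3 CPM in PH day 0 livers. All PH day 3 livers lay below all PH day 0 livers. The fall was 1.44-fold (log2 -0.53 ± 0.14, adjusted p = 0.009), and under library size scaling it missed the threshold at -0.40 (adjusted p = 0.0537). In the injection experiment Ormdl2 was at 19.3, 24.8 and 29.9 CPM in CCl4 livers, against 30.8, 31.9 and 33 CPM in olive oil livers. Those groups did not overlap, and the change was not called (log2 -0.39 ± 0.18, adjusted p = 0.16; sign turned by library size scaling). Of the exon bases of Ormdl2, 66.7% also belong to Dnajc14 on the opposite strand. Counting was strand-specific per the file headers, and Dnajc14 averaged 36 ± 3.99 CPM in PH day 3 and 33.1 ± 2.9 CPM in PH day 0 livers.

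Ormdl3 was at 55.6, 43.7 and 51.8 CPM in CCl4 livers, against 65.9, 67.4 and 64.6 CPM in olive oil livers. The CCl4 livers all lay lower, and the change missed the threshold (log2 -0.41 ± 0.14, adjusted p = 0.057; library size scaling turned its sign). After PH it was at 74.7, 81.7, 83.9, 81.8 and 94.4 CPM in PH day 3 livers, against 82, 73.8, 68.9, 67.6 and 69.3 CPM in PH day 0 livers. These groups overlapped and the change was not called (log2 0.21 ± 0.10, adjusted p = 0.14). The 2 responses differed by -0.59 ± 0.16 on the log2 scale (CCl4 response minus PH response, adjusted p = 0.025), a call that 7 of 23 alternatives ended, with adjusted p reaching 0.28. Within the family, Ormdl3 held 63.2% to 72.6% of the summed CPM per kb in PH day 3 livers, against 55.6% to 59.3% in PH day 0 livers, which did not overlap. In CCl4 livers that share was 52% to 65.1%, against 57.5% to 58.6% in olive oil livers, which did. Ormdl1, the lowest of the family at 9.76 to 17.2 CPM in CCl4 and 9.9 to 13.8 CPM in olive oil livers, was not called in any comparison.

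**Figure D3:**
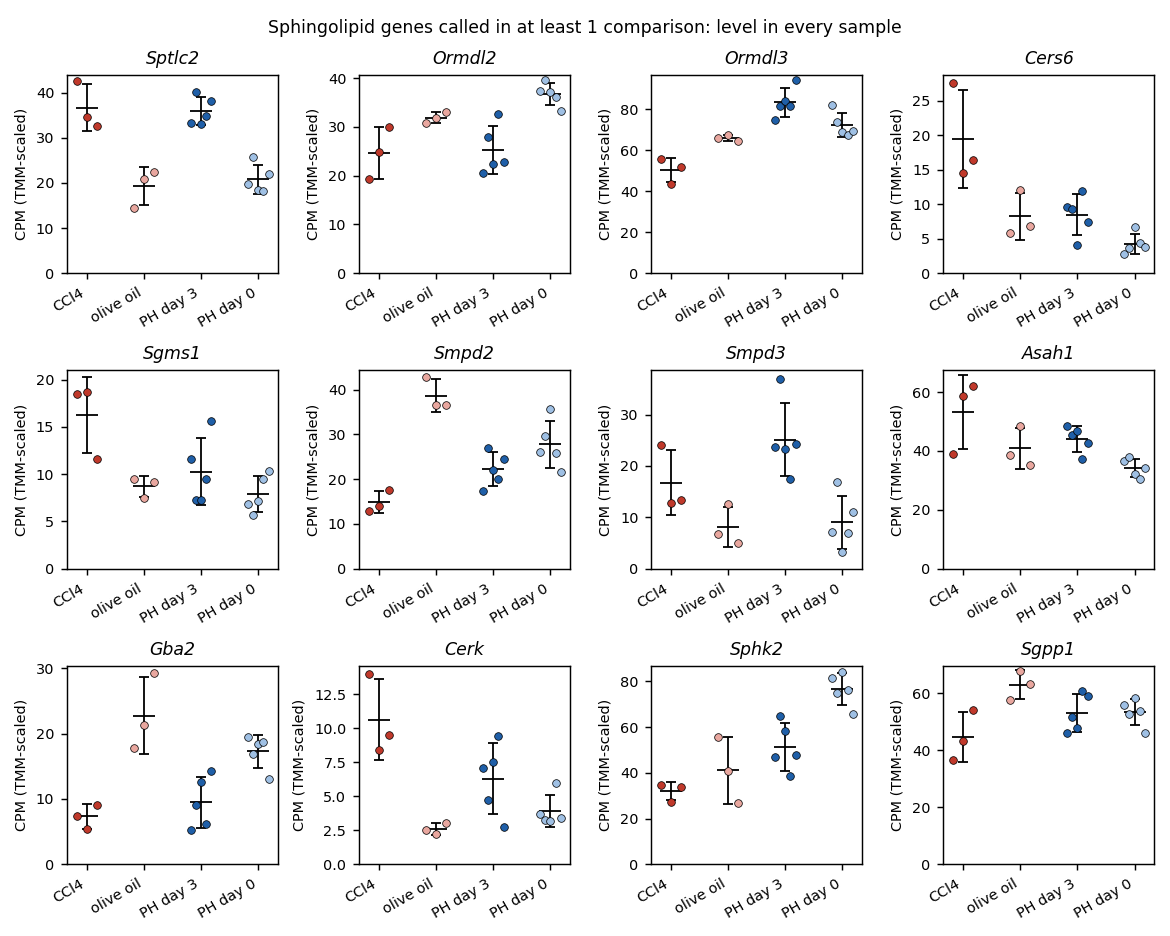
TMM-scaled CPM of the 12 members called in at least 1 comparison, in every CCl4, olive oil, PH day 3 and PH day 0 liver, with the group mean and SD as bars. Sptlc2 separates both pairs of groups, Cerk and Smpd2 separate CCl4 from olive oil livers, and Ormdl2, Smpd3 and Sphk2 separate PH day 3 from PH day 0 livers.

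Ceramide synthases differ in the acyl chain they attach. Cers6, which prefers palmitoyl-CoA, was at 27.6, 14.5 and 16.4 CPM in CCl4 livers, against 5.77, 12.1 and 6.84 CPM in olive oil livers. The groups were separate, with CCl4 replicate 1 far above the other CCl4 livers. Cers6 was 2.3-fold higher after CCl4 (log2 1.20 ± 0.34, adjusted p = 0.03), and the call was lost without olive oil replicate 1 (adjusted p = 0.12) or replicate 3 (adjusted p = 0.13). In the surgical experiment it was at 9.6, 9.37, 4.08, 12 and 7.5 CPM in PH day 3 livers, against 2.76, 3.73, 6.67, 4.38 and 3.78 CPM in PH day 0 livers. Day 3 replicate 14 fell within the range of the PH day 0 livers and the other 4 lay above it. The rise was 2.07-fold (log2 1.05 ± 0.31, adjusted p = 0.021), and it was not called without PH day 0 replicate 12 (adjusted p = 0.062) or PH day 3 replicate 15 (adjusted p = 0.082).

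Cers2 kept 92.3% to 96.2% of the summed ceramide synthase CPM per kb in CCl4 livers, against 96.9% to 98.8% in olive oil livers, and 97.6% to 98.6% in PH day 3 livers, against 98.5% to 99.3% in PH day 0 livers. Its share was thus lower in every CCl4 liver than in any olive oil liver, and the ranges of the PH groups overlapped. Its own level was 211, 293 and 303 CPM in CCl4 livers, against 382, 310.1 and 375 CPM in olive oil livers. These did not overlap, and the change was not called (log2 -0.42 ± 0.20, adjusted p = 0.15; library size scaling turned its sign). After PH it was at log2 -0.01 ± 0.09, adjusted p = 0.96. Cers5, which like Cers6 prefers palmitoyl-CoA, was at 5.3, 5.67 and 4.25 CPM in CCl4 livers, against 1, 3.73 and 2.36 CPM in olive oil livers. Its CCl4 values all lay higher, without a call (log2 1.06 ± 0.48, adjusted p = 0.14). Cers5 was too low for the test in the surgical experiment, where 60 counts in PH day 3 and 36 in PH day 0 livers gave a ratio of 2.02 per library size (95% interval 1.31 to 3.14, counting error only).

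Cers4 was low in all groups, at 2.33 to 4.56 CPM in CCl4, 1.42 to 3.51 in olive oil, 0.23 to 3.12 in PH day 3 and 1.74 to 3.69 in PH day 0 livers, and was not called. Degs1, the desaturase that makes ceramide from dihydroceramide, was at 72.4, 69.7 and 78.1 CPM in CCl4 livers, against 66.2, 59.3 and 53.3 CPM in olive oil livers. The ranges were separate and the change was not called (log2 0.28 ± 0.14, adjusted p = 0.17). After PH Degs1 was at log2 0.07 ± 0.11, adjusted p = 0.73.

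Sphingomyelin is made in the Golgi by Sgms1 and at the plasma membrane by Sgms2. Sgms1 was at 18.5, 18.7 and 11.6 CPM in CCl4 livers, against 9.53, 7.47 and 9.2 CPM in olive oil livers. Each CCl4 liver was above each olive oil liver. Sgms1 was 1.84-fold higher after CCl4 (log2 0.88 ± 0.26, adjusted p = 0.037), a call lost in 5 of 13 alternatives, with adjusted p up to 0.14: limma-voom and the fits without CCl4 replicate 2 or any 1 olive oil liver. Sgms2 was at 23.1, 42.9 and 35.3 CPM in CCl4 livers, against 44.4, 43.3 and 57.1 CPM in olive oil livers. It was lower in all CCl4 livers and was not called (log2 -0.53 ± 0.22, adjusted p = 0.12). Sgms1 thus supplied 16.6% to 32.6% of the summed synthase CPM per kb in CCl4 livers, against 8.88% to 11.5% in olive oil livers. After PH neither was called, with Sgms1 at log2 0.40 ± 0.26, adjusted p = 0.32 and Sgms2 at -0.08 ± 0.13, adjusted p = 0.73.

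Sphingomyelinases split sphingomyelin back to ceramide, in the lysosome (Smpd1) or at neutral pH in other membranes (Smpd2, Smpd3 and Smpd4). Smpd2 was at 12.9, 13.9 and 17.6 CPM in CCl4 livers, against 42.9, 36.7 and 36.6 CPM in olive oil livers. The gap between the groups was wider than the range within either. The fall was 2.64-fold (log2 -1.40 ± 0.18, adjusted p = 0.00057), and no alternative ended the call. In the surgical experiment Smpd2 was at 17.4, 27.1, 22, 20.04 and 24.5 CPM in PH day 3 livers, against 26.1, 29.6, 35.8, 25.9 and 21.6 CPM in PH day 0 livers. The ranges overlapped and the change was not called (log2 -0.32 ± 0.16, adjusted p = 0.18).

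The difference between the Smpd2 responses was -1.05 ± 0.25 on the log2 scale (CCl4 response minus PH response, adjusted p = 0.012), lost only under library size scaling (-0.75, adjusted p = 0.13) among 23 alternatives. The controls themselves were unequal, since Smpd2 averaged 38.7 ± 3.61 CPM in olive oil and 27.8 ± 5.27 CPM in PH day 0 livers. Of its exon bases, 20.3% lie opposite Mical1, which averaged 2.54 ± 1.29 CPM in CCl4 and 1.07 ± 0.637 CPM in olive oil livers.

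Smpd3 was at 23.8, 37, 23.2, 17.5 and 24.2 CPM in PH day 3 livers, against 7.23, 16.9, 3.2, 6.92 and 11 CPM in PH day 0 livers. No sample of one group entered the range of the other. Smpd3 was 2.83-fold higher on day 3 (log2 1.5 ± 0.34, adjusted p = 0.0091), and all 18 alternatives kept the call. After CCl4 it was at 24, 12.8 and 13.4 CPM, against 6.77, 12.5 and 4.95 CPM in olive oil livers. The CCl4 livers lay higher, the lowest of them just above olive oil replicate 2, and the change was not called (log2 1.01 ± 0.38, adjusted p = 0.083). The difference between the 2 responses was -0.47 ± 0.58 and did not pass the test (adjusted p = 0.74).

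Within the sphingomyelinases, the share of Smpd2 in the summed CPM per kb was 12% to 18.9% in CCl4 livers, against 27.5% to 38% in olive oil livers, and that of Smpd3 was 11.8% to 19%, against 3.27% to 8.03%. In PH day 3 livers Smpd3 held 11.9% to 22.5%, against 2.21% to 10% in PH day 0 livers. None of these 3 pairs of ranges overlapped. Smpd1 stayed the main sphingomyelinase by CPM per kb, with 61.5% ± 3 of the sum in CCl4, 56.1% ± 5.45 in olive oil, 58.8% ± 7.17 in PH day 3 and 64.7% ± 2.85 in PH day 0 livers (mean ± SD). Smpd1 and Smpd4 were not called in either experiment.

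**Figure D4:**
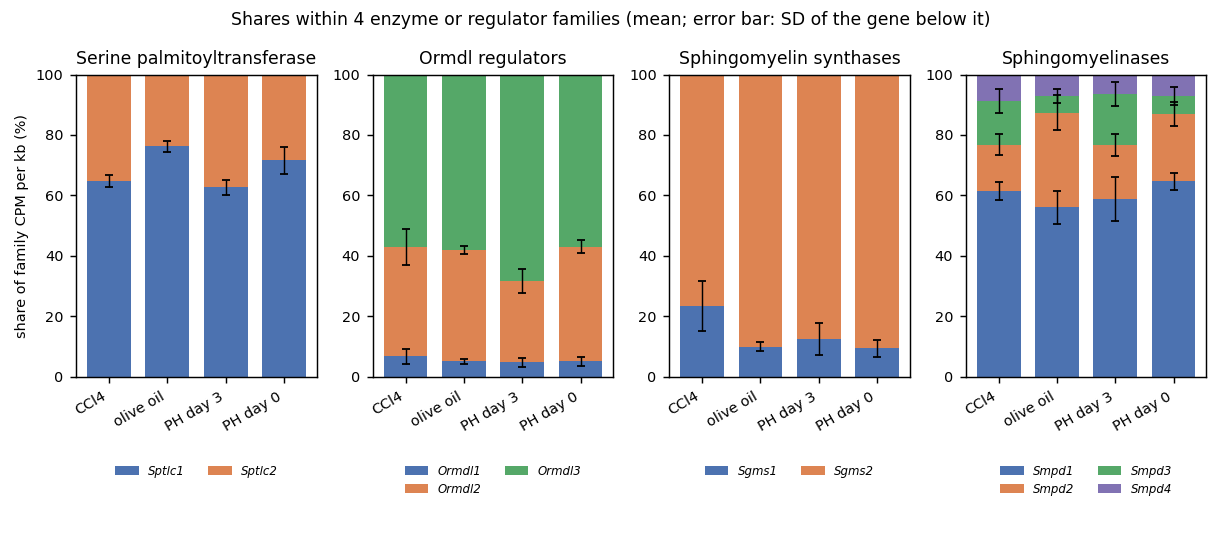
Mean share of each gene in the summed CPM per kb of its family, in percent, for CCl4, olive oil, PH day 3 and PH day 0 livers (n = 3, 3, 5 and 5). The SD of a gene is drawn at the top of its segment, except for the uppermost gene of each bar, Sptlc2 among them. Sptlc2 takes 35.2% ± 2.08 in CCl4 and 23.8% ± 1.9 in olive oil livers, and Smpd3 takes 17% ± 4.05 in PH day 3 and 6.03% ± 3 in PH day 0 livers.

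Ceramidases release sphingosine from ceramide. Asah1, the lysosomal acid ceramidase, was at 48.4, 45.5, 46.8, 37.3 and 42.6 CPM in PH day 3 livers, against 36.5, 38, 32.3, 30.5 and 34.3 CPM in PH day 0 livers. Only PH day 3 replicate 15 lay within the PH day 0 range. The rise was 1.29-fold (log2 0.37 ± 0.12, adjusted p = 0.029), and 8 of 18 alternatives ended the call, with adjusted p up to 0.087. In the injection experiment Asah1 was at 39, 58.6 and 62.1 CPM in CCl4 livers, against 38.6, 48.5 and 35.4 CPM in olive oil livers. CCl4 replicate 1 fell among the olive oil livers, and the change was not called (log2 0.37 ± 0.20, adjusted p = 0.21).

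Acer2, the Golgi alkaline ceramidase, was at 24, 8.38 and 10.1 CPM in CCl4 livers, against 5.26, 4.39 and 6.84 CPM in olive oil livers. CCl4 replicate 1 stood far above the other samples, and the ranges were separate. The change lay at the threshold (log2 1.32 ± 0.43, adjusted p = 0.05016) and was called in 7 of 13 alternatives. Without CCl4 replicate 1 it was 0.73 (adjusted p = 0.12). After PH it was at log2 0.02 ± 0.22, adjusted p = 0.96. Asah2, the neutral ceramidase, and Acer3, an alkaline one, were not called in either experiment, with log2 fold changes of 0.32 and 0.03 after CCl4 and 0.12 and 0.11 after PH.

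Gba2, an enzyme on the cytosolic face of membranes, returns glucosylceramide to ceramide outside the lysosome and was first described as a bile acid glucosidase. It was at 7.43, 5.42 and 9.15 CPM in CCl4 livers, against 17.8, 21.3 and 29.2 CPM in olive oil livers. All CCl4 livers lay below all olive oil livers. The fall was 3.17-fold (log2 -1.66 ± 0.27, adjusted p = 0.002). In PH day 3 livers Gba2 was at 5.25, 9.11, 12.6, 6.22 and 14.3 CPM, against 19.4, 16.9, 18.4, 18.7 and 13 CPM in PH day 0 livers. PH day 3 replicate 16 was above PH day 0 replicate 16, and the other 4 day 3 livers lay below all day 0 livers. That fall was 1.86-fold (log2 -0.90 ± 0.23, adjusted p = 0.0084), and the difference between the responses was not called (-0.74 ± 0.38, adjusted p = 0.3). No alternative ended either call. Of the exon bases of Gba2, 3.55% lie opposite Rgp1 and 2.97% opposite Creb3. Rgp1 fell in both experiments, at log2 -0.89 ± 0.15, adjusted p = 0.0026 after CCl4 and -0.38 ± 0.11, adjusted p = 0.015 after PH (edgeR). Creb3 was not called, at -0.49 ± 0.21, adjusted p = 0.12 and -0.39 ± 0.15, adjusted p = 0.076. Any part of these neighbours in the Gba2 counts was not tested. Ugcg, which makes the glucosylceramide that Gba2 breaks down, was not called, at log2 0.18 ± 0.22, adjusted p = 0.61 after CCl4 and -0.21 ± 0.19, adjusted p = 0.51 after PH.

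Cerk phosphorylates ceramide to ceramide 1-phosphate. It was at 14, 8.38 and 9.48 CPM in CCl4 livers, against 2.51, 2.2 and 3.07 CPM in olive oil livers. The lowest CCl4 liver was above the highest olive oil liver by a wide margin. Cerk was 4-fold higher after CCl4 (log2 2.00 ± 0.35, adjusted p = 0.0031), the largest rise among the tested members, and no alternative ended the call. In the surgical experiment it was at 7.08, 4.69, 7.54, 9.44 and 2.73 CPM in PH day 3 livers, against 3.68, 3.23, 3.2, 6 and 3.43 CPM in PH day 0 livers. PH day 3 replicate 16 was below all PH day 0 livers, and the change was not called (log2 0.71 ± 0.34, adjusted p = 0.16). The difference between the responses, at 1.32 ± 0.51, did not pass the test either (adjusted p = 0.15).

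Sphk2, the sphingosine kinase found largely in nuclei and mitochondria, was at 46.8, 65.1, 58.1, 38.7 and 47.7 CPM in PH day 3 livers, against 81.6, 75, 84.1, 76.2 and 65.9 CPM in PH day 0 livers. Every day 3 liver lay below every day 0 liver, the closest pair by less than 1 CPM. The fall was 1.49-fold (log2 -0.57 ± 0.12, adjusted p = 0.0016), and no alternative ended the call. In the injection experiment Sphk2 was at 34.6, 27.3 and 33.8 CPM in CCl4 livers, against 55.9, 40.9 and 26.6 CPM in olive oil livers. The olive oil livers spread over a range that took in the CCl4 livers, and the change was not called (log2 -0.39 ± 0.25, adjusted p = 0.29; library size scaling turned its sign). Sphk2 shares 13% of its exon bases with Dbp, a clock gene on the opposite strand, which averaged 9.4 ± 7.6 CPM in PH day 3 and 30.2 ± 19.1 CPM in PH day 0 livers, and 14.3 ± 8.92 CPM in CCl4 and 138 ± 19.6 CPM in olive oil livers.

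Sgpp1, a phosphatase that turns sphingosine 1-phosphate back into sphingosine, was at 36.7, 43.1 and 54.1 CPM in CCl4 livers, against 57.7, 67.9 and 63.2 CPM in olive oil livers. The CCl4 livers all lay lower. The fall was 1.43-fold (log2 -0.51 ± 0.16, adjusted p = 0.0457), and 8 of 13 alternatives ended the call, with adjusted p up to 0.91 under library size scaling. After PH it was at log2 -0.00 ± 0.11, adjusted p = 0.99. Sgpl1, the lyase that breaks sphingosine 1-phosphate down, was at 61.3 to 87.3 CPM in CCl4 and 56.1 to 66.5 CPM in olive oil livers and was not called in either experiment (log2 0.31 ± 0.16, adjusted p = 0.19 after CCl4 and -0.02 ± 0.09, adjusted p = 0.92 after PH).

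The 2 responses were also compared directly, as the CCl4 response minus the PH response in a fit of all 16 samples. Smpd2 and Ormdl3, given above, were the 2 members called of 27 tested, both lower, and 0 were higher by any of edgeR, limma-voom and DESeq2 (before adjustment, edgeR gave 3 with p under 0.05). The share called is 7.41% of the members, against 5.33% of all 11868 genes, with differences called lower for 3.87% and higher for 1.47%. The median log2 difference was 0.13 over the members and 0.02 over all genes. Under library size scaling, which moved the median of all genes up by 0.28, 1 other member was called, Acer2, as higher, and neither of these was.

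Other genes of the pathway were read from 6 lists with 57 genes, all matched, of which 38 were tested after CCl4, 36 after PH and 39 in the difference. After CCl4, 7 rose and 5 fell (31.6% called), with a median log2 fold change of 0.15. After PH, 7 rose (19.4% called), with a median of 0.27, and 0 fell by any of the same tools, with 2 lower in edgeR before adjustment. In the difference, 4 were lower (10.3% called), with a median of 0.00, and 0 were higher by edgeR, with 3 at an unadjusted p under 0.05, against 1 called by DESeq2 and 1 by limma-voom. The corresponding shares and medians over all genes are those given above for each comparison, and none of these counts was tested as a set. Without CCl4 replicate 1, 8 of 40 tested genes rose and 6 fell after CCl4, and 11 of the 12 called with it were called the same way. Gltp was the exception, and Sptssa, Gm2a and St3gal5 were called only without it.

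Among 2 tested partners of serine palmitoyltransferase, Rtn4, a reticulon that binds the enzyme, rose after CCl4 to 77.4 ± 18.8 CPM, against 48.6 ± 1.48 CPM in olive oil livers (log2 0.65 ± 0.18, adjusted p = 0.024), and 0 were called after PH by the same 3 tools, with both at an unadjusted p under 0.05 by edgeR. Of 6 tested genes for ceramide side reactions and lipid transfer, Aldh3a2, which oxidises the fatty aldehyde released by the lyase, fell to 71.5 ± 13.8 CPM in CCl4 livers, against 244 ± 50.2 CPM in olive oil livers (log2 -1.79 ± 0.21, adjusted p = 0.00035). Aldh3a2 averaged 121 ± 23.8 CPM in PH day 3 and 139.9 ± 35.2 CPM in PH day 0 livers, and its responses differed (-1.55 ± 0.30, adjusted p = 0.006). Gltp, a glycolipid transfer protein, was higher in both experiments, at log2 1.11 ± 0.36, adjusted p = 0.04998 after CCl4 and 1.40 ± 0.40, adjusted p = 0.016 after PH, and without CCl4 replicate 1 its CCl4 change was at 1.00 ± 0.40, adjusted p = 0.077 and was not called. Plekha8, which carries glucosylceramide through the Golgi, rose after PH (log2 0.55 ± 0.16, adjusted p = 0.02).

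Of the 14 tested genes for the breakdown of glycosphingolipids, most of them lysosomal, 4 rose and 3 fell after CCl4. Arsa, the sulfatide sulfatase, fell to 27.6 ± 5.71 CPM in CCl4 livers, against 65 ± 4.66 CPM in olive oil livers (log2 -1.26 ± 0.17, adjusted p = 0.0008). Neu1, the lysosomal sialidase, was at log2 -0.59 ± 0.16, adjusted p = 0.026 and Npc1, a lysosomal cholesterol exporter, at -0.56 ± 0.14, adjusted p = 0.016. Neu3, the plasma membrane sialidase, rose with 100 counts over the CCl4 and 4 over the olive oil livers (log2 4.10 ± 0.85, adjusted p = 0.0067). Hexa, a lysosomal hydrolase of ganglioside GM2, also rose after CCl4, at log2 0.63 ± 0.14, adjusted p = 0.011, as did Psap, the saposin precursor, at 0.65 ± 0.18, adjusted p = 0.029. Hexa and Psap rose after PH too, and neither differed between the responses by the test (adjusted p = 0.89 for Hexa and 0.18 for Psap). Gm2a also rose after PH. Gm2a, the activator protein for ganglioside GM2, reached 256 ± 27.1 CPM in PH day 3 livers, against 115 ± 8.37 CPM in PH day 0 livers (log2 1.17 ± 0.09, adjusted p = 3.2e-09). After PH Hexa was at log2 0.59 ± 0.12, adjusted p = 0.00094 and Psap at 0.30 ± 0.08, adjusted p = 0.015. The difference of the responses was called for Arsa (-1.42 ± 0.22, adjusted p = 0.00048), Npc1 (-0.75 ± 0.16, adjusted p = 0.0072) and Neu1 (-0.68 ± 0.19, adjusted p = 0.038), all lower.

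Of 8 tested genes for sphingosine 1-phosphate receptors, carriers and lipid phosphatases, Apom, the carrier of sphingosine 1-phosphate on lipoproteins, rose in both experiments. It was at 354 ± 25.7 CPM in CCl4 livers, against 203 ± 15.7 CPM in olive oil livers (log2 0.78 ± 0.16, adjusted p = 0.0071), and at 349.6 ± 8.93 CPM in PH day 3 livers, against 279 ± 19.1 CPM in PH day 0 livers (log2 0.34 ± 0.08, adjusted p = 0.005). Among the lipid phosphate phosphatases, Plpp3 fell after CCl4 (log2 -0.67 ± 0.15, adjusted p = 0.0092) and Plpp2 rose after PH (log2 0.72 ± 0.15, adjusted p = 0.0013). Of the 3 tested sphingomyelin side enzymes, 0 were called after CCl4 or PH by any of the 3 tools, with 0 in edgeR before adjustment. Of the glycosphingolipid synthesis genes, 0 of 5 tested after CCl4 and 0 of 3 tested after PH were called by edgeR, with 1 and 2 at an unadjusted p under 0.05, and DESeq2 called 1 in each. St3gal5 ran from 45.3 to 318 CPM in CCl4 livers and from 84.2 to 95.8 CPM in olive oil livers. Its log2 fold change after CCl4 was 0.59 ± 0.92 (edgeR adjusted p = 0.7). Without CCl4 replicate 1 the sign turned, to -0.96 ± 0.13 (edgeR adjusted p = 7.1e-05).

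Markers of other cell types were read beside these results, by their summed CPM and by the same tests, with the marker genes below named after their values were seen. The 7 stellate cell and myofibroblast markers summed to 331 to 822 CPM in CCl4 livers, against 97.4 to 141 in olive oil livers, and 197 to 694 in PH day 3 livers, against 103 to 200.4 in PH day 0 livers. The PH ranges overlapped at their ends, with medians of 254 CPM on day 3 and 137 CPM on day 0. Des alone ran from 4.09 to 189 CPM over the PH day 3 livers. Of the 7 markers, 5 rose after CCl4 and 3 after PH. The 5 proliferation genes summed to 237 to 454 CPM in CCl4, against 7.02 to 8.79 in olive oil livers, and to 86.1 to 216 in PH day 3, against 3.73 to 16.2 in PH day 0 livers, and all 5 rose in both experiments.

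The 8 monocyte and macrophage markers summed to 296 to 416 CPM in CCl4 livers, against 107 to 309.9 in olive oil livers, and to 128 to 251 in PH day 3, against 141 to 209 in PH day 0 livers. The sums overlapped in both experiments, but 4 of the 8 rose after CCl4: Gpnmb (log2 7.04 ± 0.32, adjusted p = 5e-06), Ccr2 (4.24 ± 0.53, adjusted p = 0.00048), Lyz2 (1.37 ± 0.37, adjusted p = 0.039) and Cd68 (1.32 ± 0.35, adjusted p = 0.027). Clec4f, a Kupffer cell marker, was at -0.88 ± 0.52, adjusted p = 0.3 and Csf1r at -0.06 ± 0.47, adjusted p = 0.95. Gpnmb averaged 45 ± 5.86 CPM in CCl4 livers, against 0.319 ± 0.158 CPM in olive oil livers, from 4 counts over the olive oil livers. After PH, 0 of 5 tested were called by edgeR, DESeq2 or limma-voom, with 0 in edgeR before adjustment. Gpnmb, Ccr2 and Itgam were too low for that test, with 6, 31 and 23 counts over the PH day 3 livers and 5, 20 and 5 over the PH day 0 livers. The responses differed for Gpnmb (6.55 ± 1.20, adjusted p = 0.0016) and Ccr2 (3.35 ± 0.92, adjusted p = 0.033). The 5 cholangiocyte markers summed to 175 to 294 CPM in CCl4, against 53.4 to 109 in olive oil livers, and to 138 to 246 in PH day 3, against 77.8 to 179 in PH day 0 livers. Spp1 made up most of this sum, at 154.5 to 278 CPM in CCl4 and 44.6 to 101.7 CPM in olive oil livers. Krt19, Krt7 and Epcam were too low for the test after CCl4 and after PH. Of 2 tested, Spp1 rose after CCl4 (log2 1.71 ± 0.35, adjusted p = 0.013) and Sox9 was not called, and 0 were called after PH by the same 3 tools, with 0 in edgeR before adjustment.

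Endothelial markers, 6 in number, summed to 90.4 to 106 CPM in CCl4 and 91.6 to 100 CPM in olive oil livers, and to 94.8 to 161 CPM in PH day 3 and 137 to 177 CPM in PH day 0 livers. Among them Lyve1 rose after CCl4 (log2 2.60 ± 0.65, adjusted p = 0.02), and Kdr (-0.84 ± 0.14, adjusted p = 0.00012) and Clec4g (-0.62 ± 0.16, adjusted p = 0.0067) fell after PH. The 3 red blood cell markers summed to 68.5 to 123 CPM in CCl4, against 283 to 312 CPM in olive oil livers, and to 364 to 893 CPM in PH day 3, against 447 to 1035 CPM in PH day 0 livers. All 3 fell after CCl4, and Alas2 fell after PH (log2 -0.997 ± 0.12, adjusted p = 3.1e-06). The 5 lymphocyte markers summed to 4.84 to 14.5 CPM over all groups, with Cd3e and Nkg7 at 0 in olive oil and Nkg7 at 0 in PH day 3 livers. Ptprc made up most of this sum. It averaged 11.7 ± 3.17 CPM in CCl4, 8.41 ± 2.83 in olive oil, 5.95 ± 1.37 in PH day 3 and 6.92 ± 1.51 in PH day 0 livers. Of the 4 pancreas markers, Prss2, Cpa1 and Pnlip were at 0 in CCl4, olive oil and PH day 0 livers and had 2, 2 and 4 counts in PH day 3 livers. The fourth, Cela1, averaged 13.9 ± 2.21 CPM in PH day 3 livers, against 33.4 ± 1.92 CPM in PH day 0 livers, and fell (log2 -1.25 ± 0.15, adjusted p = 1.4e-06). After CCl4 Cela1 was at -1.05 ± 0.54, adjusted p = 0.22.

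Over all lists, 16 of 39 tested markers rose and 4 fell after CCl4 (51.3% called), and 9 of 36 rose and 6 fell after PH (41.7% called), to be read against the shares of all genes given above. Without CCl4 replicate 1, 17 rose and 4 fell, and 19 of the 20 were called the same way, the exception being Lyz2 (adjusted p = 0.12). The sums without that library were 544 to 822 CPM for the stellate, 306 to 416 for the macrophage, 236 to 294 for the cholangiocyte, 293 to 454 for the proliferation, 93.9 to 106 for the endothelial and 106 to 123 for the red blood cell markers. None of the stellate, macrophage, cholangiocyte, endothelial, red blood cell or proliferation markers was at 0 over a whole group. The part of these markers in the changes of the members was not tested.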

How the data were processed

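Whole-liver RNA libraries were sequenced, and the authors deposited raw read counts per gene, 1 table for each of the 16 samples. Per the file headers, the authors counted reads with featureCounts 1.6.2 on exons summed by gene, in reverse-stranded mode, with an Ensembl 95 annotation. Per the submitters' processing notes, reads were aligned with STAR 2.5.1 to GRCm38. Reads in 2 genes at once are lost by such counting, which lowers genes with same-strand overlaps.

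Counts were tested with the quasi-likelihood F test of edgeR 4.0.16 in R 4.3.3 (TMM factors, filterByExpr with a minimum count of 10, robust fit), separately for CCl4 against olive oil and for PH day 3 against PH day 0, and in 1 fit of 4 groups for the difference of the responses. P-values were adjusted by Benjamini-Hochberg over all genes tested, and a call is an adjusted p under 0.05. Each SE was derived from the fold change and its F statistic (log2 value over root F). CPM per kb divides TMM-scaled CPM by the deposited exon length. DESeq2 1.42.0, limma 3.58.1 (voom), other scalings and filters, a fit of all groups and leaving out each sample in turn were alternatives. The scripts were tested on simulated data with known changes. Of 2-fold changes, 23.9% were called for CCl4 against olive oil, 68.7% for PH day 3 against PH day 0 and 20.9% for the difference. Of 1.5-fold changes, 1.49%, 37.3% and 0% were called in the same order. Each simulation changed only 200 genes, while 2599, 1871 and 633 genes were called in the data, in the same order. With fewer changed genes the adjustment is stricter, so these rates do not give the share of real changes that was called. A member without a call is not shown to be unchanged, and the comparisons differed in what they could detect in the simulation. The text gives all 31 members and, of the 6 pathway lists, up to 2 called genes of smallest adjusted p in each list and comparison and every gene behind a count of 3 or fewer. The members and lists were chosen with earlier results of these data known. The labels number the samples without saying that a PH number marks the same animal at both times, so p-values measure the spread between these samples. No 2 tables were identical, and pairs of replicates differed by more than sampling noise (chi-square per degree of freedom 5.51 to 72.3). Of 50 marker genes 49 were matched. Promoters came from RefSeq on GRCm38.p6.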

Additional observations from a re-analysis of the deposited data

Results flagged for a closer look

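Smpd2 responded differently in the 2 experiments, with a log2 difference of -1.05 (CCl4 response minus PH response, adjusted p = 0.012, edgeR). Its log2 fold change was -1.40 after CCl4 and -0.32 after PH. Ormdl3 also differed, at -0.59 (adjusted p = 0.025), with log2 fold changes of -0.41 after CCl4 and 0.21 after PH, neither of them called alone. Challenge and experiment cannot be told apart in these differences.

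Cerk in PH day 0 replicate 15, at 6 CPM, lay apart from the other 4 PH day 0 livers, at 3.20 to 3.68 CPM. Cers1 in PH day 3 replicate 14, at 0.628 CPM from 2 counts, was the only nonzero value of its group, a level within what a count of 0 allows in the other libraries. Chance marks about 1 in 20 groups in this way, and 2 of the 58 gene and group pairs examined were marked. All of these pairs were PH groups, and the CCl4 and olive oil groups were not examined in this way. A lone nonzero value, as for Cers1, is marked whatever its size, so that rate does not apply to it.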

How the results depend on the processing

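Library size scaling had the widest effect, since it moved the median of all genes by 0.45 after CCl4 and 0.14 after PH. It called 12 members after CCl4 (7 under TMM) and 1 in the difference of the responses (2 under TMM). It turned the sign of uncalled members after CCl4, to 0.11 for Kdsr, 0.088 for Ormdl2, 0.027 for Ormdl3, 0.054 for Cers2, 0.19 for Smpd1, 0.40 for Smpd4 and 0.042 for Sphk2. After PH it turned Ormdl1 to 0.043, Cers2 to 0.13, Sgms2 to 0.057, Smpd1 to 0.027, Sgpl1 to 0.11 and Sgpp1 to 0.13. Other signs turned near 0: Acer3 after CCl4 under limma-voom (-0.014), and after PH Acer2 with no filter (-0.0021) and Sgpp1 with DESeq2 size factors (0.0007).

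Leaving out 1 sample at a time called 4 to 9 members after CCl4, 6 to 7 after PH and 1 to 3 in the difference, the lowest without olive oil replicate 1 or 3 (CCl4) and without any 1 olive oil liver (difference). Signs turned for uncalled members in these fits. After CCl4 the ranges were -0.29 to 0.17 for Ormdl1, -0.037 to 0.48 for Cers4, -0.22 to 0.074 for Smpd4, -0.32 to 0.34 for Acer3 and -0.021 to 0.27 for Ugcg. After PH they were -0.066 to 0.029 for Cers2, -0.034 to 0.26 for Asah2, -0.11 to 0.085 for Acer2, -0.009 to 0.25 for Acer3 and -0.058 to 0.045 for Sgpp1. No called member changed sign under any alternative. The other alternatives called 6 to 10 members after CCl4, 6 or 7 after PH and 2 in the difference.

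The labels do not say whether a PH replicate number marks 1 animal at both times, and deviations of same-numbered samples correlated weakly (-0.0217 to 0.093, the own number best for 2 of 5), so the pairing was used only as an alternative. Some numbers carry the letter N in the PH day 3 labels and not in the PH day 0 labels, and these were treated as the same number. With the replicate number as a block, 7 members were called after PH, as without it, and 1 in the difference, Smpd2. Depth limits Sptlc3, Cers1, Degs2 and Sphk1, whose counts were too few for the test.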

Other observations

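The ranges of the livers that served as controls did not overlap for 7 of the 27 members tested in the difference of the responses, against 11.7% of all 11868 genes, and they overlapped for the other 20. No test was run, because the experiment and the control treatment cannot be told apart. Smpd2 was the 1 member higher in olive oil livers, at 36.6 to 42.9 CPM, against 21.6 to 35.8 CPM in PH day 0 livers. The 6 members lower in olive oil livers were Sphk2, Acer2, Ormdl2, Ormdl3, Sgpl1 and Cerk. Sphk2 was at 26.6 to 55.9 CPM in olive oil and 65.9 to 84.1 CPM in PH day 0 livers, and Acer2 at 4.39 to 6.84 CPM in olive oil and 8.08 to 11.7 CPM in PH day 0 livers. Ormdl3, whose responses differed, was at 64.6 to 67.4 CPM in olive oil and 67.6 to 82 CPM in PH day 0 livers, and Ormdl2 at 30.8 to 33 CPM in olive oil and 33.3 to 39.7 CPM in PH day 0 livers. Sgpl1 was at 56.1 to 66.5 CPM in olive oil and 67.6 to 79.2 CPM in PH day 0 livers, and Cerk at 2.2 to 3.07 CPM in olive oil and 3.2 to 6 CPM in PH day 0 livers. Dbp, which lies opposite part of Sphk2 and follows the time of day in liver, averaged 138 ± 19.6 CPM in olive oil and 30.2 ± 19.1 CPM in PH day 0 livers. The time of day at which livers were taken is not given in the sources used here.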
